A study of Mus musculus with 8 samples.

Results

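The genes for matricellular proteins and for enzymes and fibers that crosslink and order the extracellular matrix were examined for WFS1 occupancy in mouse myoblasts. The set comprised 10 named genes, Fn1, Tnc, Postn, Thbs1, Thbs2, Sparc, Lox, Loxl1, Loxl2 and Fbn1, out of 21938 protein-coding genes, and every WFS1 peak in or within 100 kb of 1 of them was included. These were 92 of 22292 combined peaks. WFS1 chromatin immunoprecipitation with sequencing (ChIP-seq) had been carried out on C2C12 myoblasts, an established line of mouse muscle precursor cells kept in proliferation, after crosslinking with disuccinimidyl glutarate and formaldehyde. Both lists used here came from wildtype cells and the same immunoprecipitate, with 1 part sequenced after 30 sonication cycles and the other after 6 further cycles, 36 in total. The study comprised 8 libraries, and the inputs as well as the libraries from WFS1 knockout cells overexpressing FlagTag WFS1 were not used here.

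The lists held 18283 peaks after 30 cycles and 12674 after 36 cycles, each given by chromosome, start and end. Overlapping or directly adjoining peaks were joined into the combined set. A combined peak was either found in both lists or after 30 or 36 cycles only. With 1 library per condition and a shared immunoprecipitate the lists are not replicates, and no test was run. Comparisons hold for these 2 libraries alone. The lists carry no height or score and the sequencing depth is unknown, so intervals cover counting error over peaks only.

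WFS1, or wolframin, is a transmembrane protein best known from the membrane of the endoplasmic reticulum, which is continuous with the nuclear envelope. Matricellular proteins are secreted into the matrix, where they modulate adhesion and signaling more than they bear load, and several of them are made by myoblasts and by regenerating muscle. Lysyl oxidases oxidize lysines of collagen and elastin so that the fibers become crosslinked, and fibrillin microfibrils provide the scaffold for elastic fibers.

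All 10 genes had a combined peak in or within 100 kb, against a background of 73.4% of protein-coding genes. All 10 also had at least 1 peak found in both lists, where the background was 47.8%. The number of peaks per gene ranged from 2 for Loxl2 to 22 for Fbn1. The median was 7.5 peaks (interquartile range 5.25 to 12.25), whereas the median over all protein-coding genes was 2 (0 to 5). At least 10 peaks were present for 4 of the 10 genes, Thbs2, Sparc, Loxl1 and Fbn1, compared to 7.06% of protein-coding genes. The windows of the 10 genes together held 35.5 combined peaks per Mb (exact Poisson 95% interval 28.6 to 43.5), the nuclear chromosomes 8.18 per Mb, and the median protein-coding gene window 9.35 per Mb. The Poisson interval treats peaks as independent, which neighboring peaks are not. The members differed widely among each other. Fn1 with 4 peaks and Loxl2 with 2 peaks were in the range of many genes, as 36.0% and 58.7% of protein-coding genes had at least as many.

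**Figure D1:**
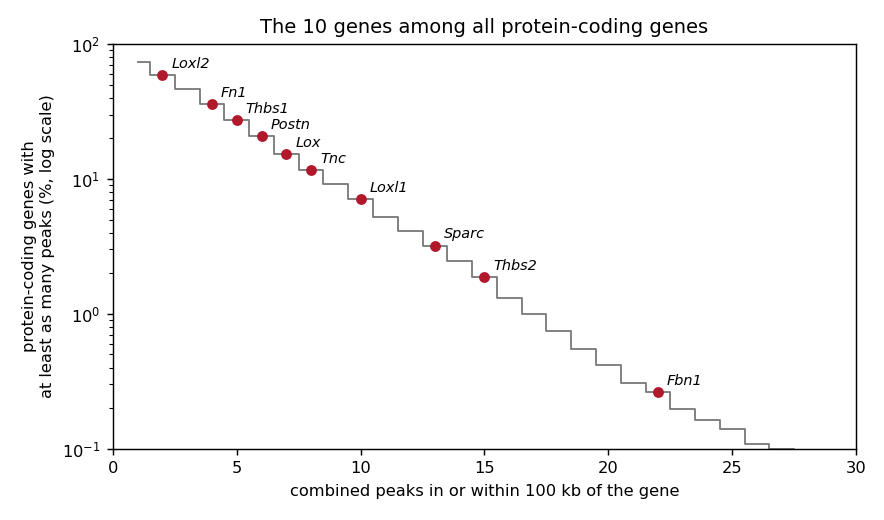
Combined peaks in or within 100 kb of a gene (horizontal axis) against the share of protein-coding genes with at least as many (vertical axis, percent, log scale). The line runs over all 21938 protein-coding genes and the points mark the 10 genes, from Loxl2 with 2 peaks to Fbn1 with 22.

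Of the 92 peaks, 37 were upstream of the gene, 5 covered the annotated start site, 28 were inside the gene beyond the start site and 22 were downstream. A peak inside the gene was present for 9 of 10 genes, all but Postn, compared to 24.6% of protein-coding genes. The members are 13.8 to 207 kb long, and this background was not matched for length. A peak centered within 1 kb of the start site was present for 7 of 10 genes, all but Postn, Loxl2 and Fbn1, where the background was 12.5%. With the 36-cycle list alone the count was 4 of 10, and 5.58% of protein-coding genes had such a peak. When every annotated transcript start of a gene was allowed, the count was 8 of 10, for which no background was computed. A peak over the start site itself was present for 5 genes, Fn1, Tnc, Thbs2, Lox and Loxl1, while 3.36% of protein-coding genes had one. Otherwise, start sites are the annotated 5′ end of the gene, and distances run from it to the nearest edge of the peak.

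**Figure D2:**
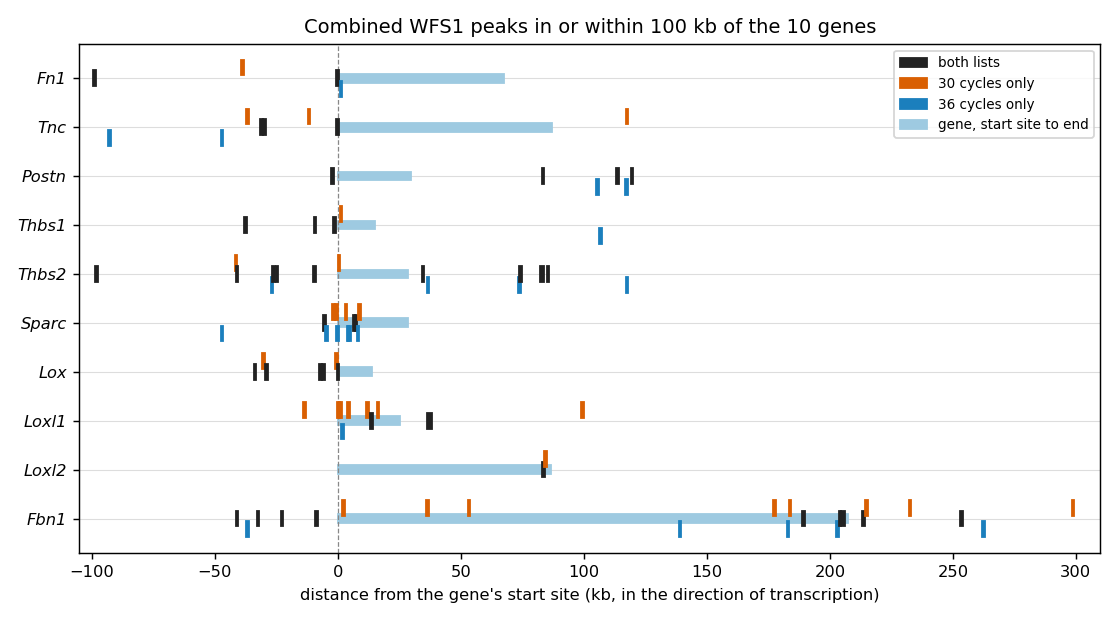
Position of each of the 92 combined peaks relative to the start site of its gene (horizontal axis, kb in the direction of transcription), with 1 line per gene and the gene body as a bar. Colors and height give the list that held the peak, and narrow peaks are drawn wider than they are. Lox peaks are all upstream or at the start site, Loxl2 peaks are both near the end of the gene, and Fbn1 peaks spread over and beyond the gene.

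The sequences beneath the peaks were searched for binding motifs of factors active in myoblasts. CAGCTG is the E-box bound by MyoD and related factors, and TGACTCA is the site of AP-1. For 6 genes, the widest peak of both lists that held 1 of these motifs outside untranslated regions is represented here by the stretch around the motif. This lets the letters beneath the wide peaks be read, and at most 6 sequences were printed. No sequence is given for Lox, although its widest peak held a TGACTCA. Nor is one given for Postn, Sparc and Loxl2, although peaks of both lists with CAGCTG were present there (611, 656 and 653 bp). The peaks can hold more motifs than the stretch shows. Over its whole length the Loxl1 peak also held 2 TGACTCA, and the Thbs1 peak held 1 TGACTCA and 3 CAGCTG. Each stretch is given from the plus strand of GRCm38, 5′ to 3′, with the motif in capitals and up to 60 bases on either side.
Loxl1, 36.3 kb from the start site and beyond the gene, chr9:58275522-58275647: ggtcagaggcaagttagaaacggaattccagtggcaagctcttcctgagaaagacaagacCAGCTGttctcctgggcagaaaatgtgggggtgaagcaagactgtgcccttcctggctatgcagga
Fn1, intron 1, in the peak over the start site, chr1:71652624-71652749: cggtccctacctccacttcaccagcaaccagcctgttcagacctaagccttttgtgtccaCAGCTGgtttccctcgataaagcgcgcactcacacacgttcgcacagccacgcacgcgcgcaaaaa
Fbn1, intron 53, chr2:125318285-125318410: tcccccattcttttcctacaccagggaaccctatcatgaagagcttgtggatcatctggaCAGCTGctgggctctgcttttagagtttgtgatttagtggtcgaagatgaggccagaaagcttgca
Thbs2, 82.3 kb from the start site and beyond the gene, 2 TGACTCA read from the minus strand, chr17:14610970-14611096: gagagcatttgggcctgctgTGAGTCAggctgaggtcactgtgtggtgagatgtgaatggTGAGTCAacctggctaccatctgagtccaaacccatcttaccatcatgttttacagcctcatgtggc
Thbs1, upstream, chr2:118110574-118110699: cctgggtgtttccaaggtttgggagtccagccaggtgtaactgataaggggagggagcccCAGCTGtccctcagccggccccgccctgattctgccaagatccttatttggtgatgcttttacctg
Tnc, upstream, in the peak over the start site, chr4:64047294-64047419: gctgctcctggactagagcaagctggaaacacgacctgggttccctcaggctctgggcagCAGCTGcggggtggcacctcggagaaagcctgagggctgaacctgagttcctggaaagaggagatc

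These motifs lay 136 to 642 bp from the center of their peak. In the central 200 bp of the peaks, on either strand, CAGCTG was present in 22 of 92 peaks of the 10 genes (23.9%, 95% Wilson interval 16.4 to 33.6) and in 18.0% of all combined peaks. TGACTCA was present in 12 peaks (13.0%, 7.62 to 21.4), compared to 17.9% of all combined peaks. Both intervals include the value of all combined peaks. In the central 100 bp they did not. There CAGCTG was in 15 of 92 peaks (16.3%, 10.1 to 25.2) against 9.78%, a value close to the lower limit. TGACTCA was in 2 of 92 (2.17%, 0.598 to 7.58) against 9.50%. Over whole peaks the intervals included the background again. CAGCTG was in 38.0% (28.8 to 48.3) against 32.8%, and TGACTCA in 25.0% (17.3 to 34.7) against 31.2%. Neighboring peaks are not independent, and the motif intervals do not take that into account. In the central 200 bp, TGTGGT, a RUNX site, was in 23 peaks (25.0%, 17.3 to 34.7) against 24.7%. GGAATG, a TEAD site, was in 20 peaks (21.7%, 14.5 to 31.2) against 15.6%, and 9 of these peaks were those of Fbn1. The CArG box of serum response factor was found in 0 of 92 central stretches (Wilson upper limit 4.01%) against 1.02%, and in 5 of the 92 peaks over their whole length (5.43%, 2.34 to 12.1) against 2.59%.

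Both CAGCTG and TGACTCA occurred in the central 200 bp of 4 peaks (4.35%, 1.70 to 10.7), against 3.68% of all combined peaks. Of these, 3 are shown, chosen after their values were seen, so that the spacing of the motifs can be read. Capitals mark both motifs, TGAGTCA being TGACTCA on the minus strand, with 20 bases on either side.
Tnc, 11.8 kb upstream, chr4:64058965-64059136: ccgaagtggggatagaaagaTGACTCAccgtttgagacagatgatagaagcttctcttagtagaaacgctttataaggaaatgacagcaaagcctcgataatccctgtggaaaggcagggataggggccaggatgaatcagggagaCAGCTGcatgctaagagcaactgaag
Tnc, 117 kb from the start site and beyond the gene, chr4:63929624-63929728: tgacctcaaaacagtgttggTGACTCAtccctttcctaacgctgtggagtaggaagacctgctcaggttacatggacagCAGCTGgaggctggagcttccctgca
Fbn1, 41.3 kb upstream, chr2:125549338-125549440: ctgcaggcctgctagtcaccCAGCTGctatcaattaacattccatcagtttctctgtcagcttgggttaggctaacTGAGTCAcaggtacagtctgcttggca

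The motifs were 50 bases apart in the Fbn1 peak, 52 in the distal Tnc peak and 119 in the upstream Tnc peak. The Fbn1 peak was found in both lists, whereas both Tnc peaks were found after 30 cycles only.

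Among the matricellular and adhesive glycoprotein genes, Fn1 (ENSMUSG00000026193, chromosome 1, 71585520 to 71653200, minus strand, GRCm38) encodes fibronectin, the adhesive glycoprotein that links integrins to collagen. The gene had 3 peaks after 30 cycles and 3 after 36 cycles, combined to 4. The main one covered the start site (71652552 to 71654106, 1555 bp) and was found in both lists, with 1347 bp after 30 cycles and 1374 bp after 36 cycles. It extended over exon 1 into intron 1, and its GC content was 58.3%, compared to a median of 46.0% for the 92 peaks. Inside intron 1 a peak of 202 bp after 36 cycles only began 757 bp from the start site. The remaining ones were far upstream, an 834 bp peak at 38.5 kb after 30 cycles only and a 494 bp peak at 99.0 kb in both lists. No peak was found in the rest of the gene or downstream of it.

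Tnc (ENSMUSG00000028364, chromosome 4, 63959785 to 64047015, minus strand) encodes tenascin C, an adhesion-modulating glycoprotein induced in injured and regenerating tissue. It had 8 combined peaks, 6 in the 30-cycle list and 5 in the 36-cycle list. As for Fn1, a peak of both lists covered the start site (64046693 to 64047645, 953 bp), with 824 bp after 30 cycles and 804 bp after 36 cycles. Upstream 6 peaks followed, of which those at 29.2 kb (1004 bp) and 31.0 kb (554 bp) were found in both lists. Those at 11.8 and 36.8 kb were found after 30 cycles only, those at 47.4 and 92.8 kb after 36 cycles only. Apart from the start site the gene body of 87.2 kb held no peak, and 1 peak was found 29.9 kb beyond its end.

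Postn (ENSMUSG00000027750, chromosome 3, 54361109 to 54391037, plus strand) encodes periostin, a matricellular protein that binds collagen and integrins. It was the only member without a peak in the gene. Of its 6 peaks, 4 were in the 30-cycle list and all 6 in the 36-cycle list, with none after 30 cycles only. The nearest was 2.15 kb upstream, 514 bp in both lists, and spanned 514 bp after 30 cycles against 296 bp after 36 cycles. The other 5 were downstream, between 82.9 and 119 kb from the start site. Of these, 3 were in both lists, of 341 bp at 82.9 kb, 611 bp at 113 kb and 638 bp at 119 kb. Postn was the nearest protein-coding start site for all 6.

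Thbs1 (ENSMUSG00000040152, chromosome 2, 118111876 to 118127133, plus strand) and Thbs2 (ENSMUSG00000023885, chromosome 17, 14665500 to 14694235, minus strand) encode thrombospondins, which limit angiogenesis and modulate cell adhesion, and of which thrombospondin 1 can activate latent TGF-β. The paralogs differed in number, with 5 peaks for Thbs1 and 15 for Thbs2. For Thbs1, as many peaks were found in 27.2% of protein-coding genes, for Thbs2 in 1.87%. Each had 1 peak touching the gene.

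The 3 upstream peaks of Thbs1 were found in both lists, 882 bp at 37.2 kb, 500 bp at 9.33 kb and 1077 bp at 837 bp from the start site. The last of these ended short of the start site and spanned 1077 bp after 30 cycles but 369 bp after 36 cycles. A 242 bp peak after 30 cycles only lay over exon 3, 873 bp into the gene. The fifth, after 36 cycles only, lay 106 kb away inside the neighboring gene Fsip1, whose start site was nearer.

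Thbs2 had 9 peaks of both lists, as many as Fbn1 and more than the others. Only 1 peak was in the gene, 273 bp over the start site (14694064 to 14694336), and it was found after 30 cycles only. After 36 cycles the nearest peak was 9.51 kb away. The other 14 peaks fell into 7 upstream and 7 downstream, and Thbs2 was the nearest protein-coding start site for each. Upstream, peaks of both lists were found at 9.36 kb (529 bp), 24.1 kb (1162 bp), 25.7 kb (1040 bp), 40.9 kb (609 bp) and 97.8 kb (666 bp). Downstream, they were found at 34.1 kb (329 bp), 73.8 kb (587 bp), 82.3 kb (1375 bp) and 84.9 kb (1090 bp) from the start site. The widest peaks of Thbs2 lay at a distance on both sides, whereas the peak at the start site was narrow and present in 1 list.

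Sparc (ENSMUSG00000018593, chromosome 11, 55394500 to 55423183, minus strand) encodes the collagen-binding glycoprotein SPARC, or osteonectin. It had 13 combined peaks, 7 in the 30-cycle list and 9 in the 36-cycle list, and 12 of these lay in 1 stretch of 14.6 kb from 5.60 kb upstream to 8.26 kb inside the gene. When peaks with gaps of at most 5 kb were grouped, the genome held 16222 groups, and as many as 12 peaks were found in 6 of them (0.0370%). Of the 12 peaks, 3 were in both lists, 4 after 30 cycles only and 5 after 36 cycles only. Several of them lay less than 500 bp from the next. Joining peaks up to 500 bp apart reduced the 92 peaks of all members to 75, and the groups were not recounted at that setting. Sparc had the lowest median width of the 10 genes, 309 bp, and 10 of its 13 peaks were found in 1 list only, compared to 64.6% of all combined peaks.

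The 3 Sparc peaks of both lists were 360 bp at 5.60 kb upstream and 656 bp and 578 bp in intron 1, at 6.06 and 6.88 kb from the start site. The annotated 5′ end of the gene had no peak over it, and the nearest one, 195 bp after 36 cycles only, lay 331 bp upstream and consisted of repeat sequence to 83.6%. However, the principal transcript Sparc-201 starts 3103 bp inside the gene, and a 298 bp peak found after 30 cycles only (55420000 to 55420297) covered that start and reached into exon 1. The last of the 13 peaks lay 47.2 kb upstream in G3bp1, with its center 0.843 kb from the start site of that gene.

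**Figure D3:**
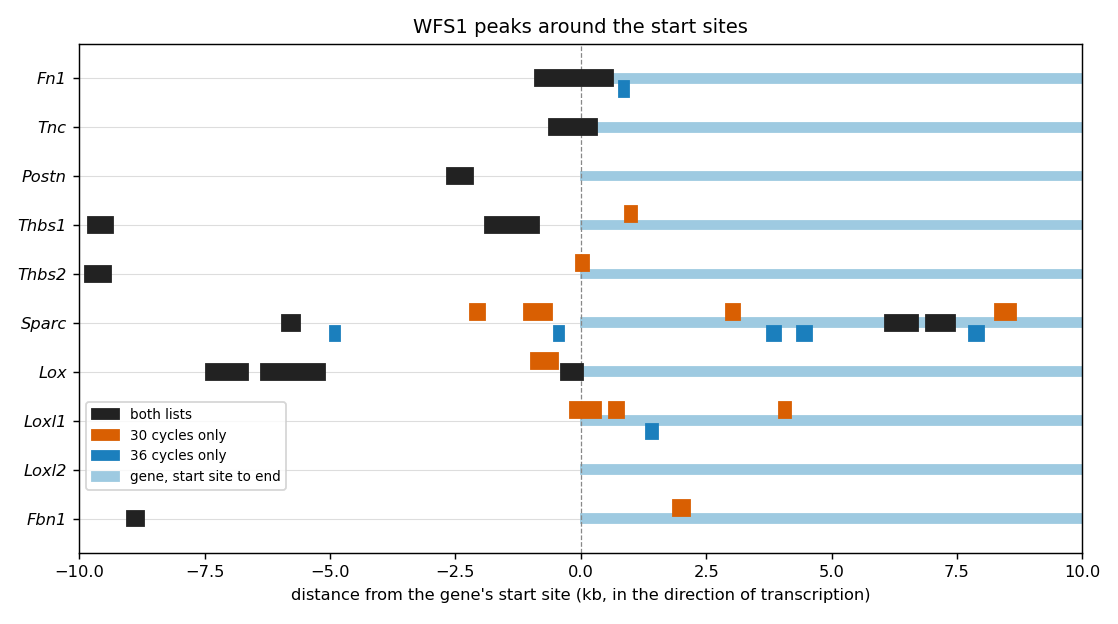
Combined peaks within 10 kb of the start sites, to scale (horizontal axis, kb in the direction of transcription), with 1 line per gene. Black peaks were found in both lists, orange after 30 cycles only and blue after 36 cycles only. Fn1, Tnc, Thbs2, Lox and Loxl1 have a peak over the start site, Sparc has a run of 12 peaks and Loxl2 has none.

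Among the crosslinking enzymes, Lox (ENSMUSG00000024529, chromosome 18, 52516067 to 52529867, minus strand) encodes lysyl oxidase. All 7 of its peaks were in the 30-cycle list and 5 of them in the 36-cycle list. They were all at the start site or upstream. The peak over the start site (52529826 to 52530258, 433 bp in both lists) spanned 314 bp after 30 cycles and 433 bp after 36 cycles. The principal transcript Lox-201 starts 193 bp inside the gene, so the edge of this peak was 152 bp away from it. A 551 bp peak after 30 cycles only was 452 bp upstream.

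Further upstream of Lox, 1272 bp and 841 bp peaks of both lists were found at 5.10 and 6.64 kb. The peak at 5.10 kb spanned 1134 bp after 30 cycles and 846 bp after 36 cycles. A more distant group comprised a 1067 bp peak at 28.3 kb and a 421 bp peak at 33.7 kb, both in both lists, and a 322 bp peak at 30.5 kb after 30 cycles only. Each of the 7 peaks had Lox as the nearest protein-coding start site.

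Loxl1 (ENSMUSG00000032334, chromosome 9, 58287738 to 58313186, minus strand) encodes the lysyl oxidase-like enzyme required for elastic fiber homeostasis. Of its 10 peaks, 9 were in the 30-cycle list and 3 in the 36-cycle list. Peaks found after 30 cycles only were 7 of 10, compared to 29 of 92 over all members (31.5%) and 45.5% of all combined peaks. The peak over the start site (58312780 to 58313412, 633 bp) was among them and had a GC content of 66.0%. After 36 cycles the nearest peak was 1.30 kb inside the gene, a 239 bp peak over the end of exon 1. Another peak of exon 1 (297 bp) and those in the introns at 3.95, 11.6 and 15.8 kb were found after 30 cycles only, and the 693 bp peak in intron 1 at 13.3 kb was found in both lists.

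The widest of all 92 peaks was assigned to Loxl1 as well. It lay 10.8 kb beyond the end of the gene and 36.3 kb from its start site (58275077 to 58276905, 1829 bp) and spanned 1514 bp after 30 cycles and 1829 bp after 36 cycles. Here the start site of Stoml1 was nearer, 22.8 kb from the center of the peak. Which of these genes it belongs to cannot be told from position.

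Loxl2 (ENSMUSG00000034205, chromosome 14, 69609068 to 69695834, plus strand) encodes another lysyl oxidase-like enzyme, which acts on collagen IV of basement membranes. Both lists held 2 peaks each, combined to 2, and none was near the start site. A 653 bp peak, joined from 1 peak after 30 cycles and 2 after 36 cycles, lay over exon 13, 83.0 kb from the start site, and an 829 bp peak after 30 cycles only lay over exon 14, the last exon, at 83.9 kb. Among protein-coding genes, the start site of R3hcc1 was nearer to both peaks, 15.2 and 14.2 kb from their centers. The start of the microRNA gene Mir6950 was nearer still, at 0.145 and 1.095 kb. Among protein-coding genes of like length (within 1.5-fold), 67.6% had as many peaks as Loxl2.

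Fbn1 (ENSMUSG00000027204, chromosome 2, 125300594 to 125507993, minus strand) encodes fibrillin 1, the main component of microfibrils. It had 22 peaks, 17 in the 30-cycle list and 15 in the 36-cycle list, and is the longest member with 207 kb. As many peaks were found in 0.264% of protein-coding genes and in 1.18% of those of like length. Inside the gene 11 peaks were found, 5 were upstream and 6 downstream. None covered the start site, and the nearest was a 350 bp peak in exon 1 at 1.83 kb after 30 cycles only, which also lay in the overlapping gene Gm9913.

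Most Fbn1 peaks lay outside the gene or toward its 3′ end. Upstream, peaks of both lists lay at 8.72 kb (336 bp), 22.7 kb (530 bp), 32.5 kb (478 bp) and 41.3 kb (273 bp). Toward the 3′ end 7 peaks were found between 177 and 205 kb from the start site, with those of both lists over exon 53 (1467 bp), in intron 63 (542 bp) and over exons 64 and 65 (1413 bp). The exon 53 peak was wider after 36 cycles (1467 bp) than after 30 cycles (1016 bp), whereas the peak over exons 64 and 65 was wider after 30 cycles (1413 bp against 682 bp in 2 pieces). Beyond the gene a 1194 bp peak of both lists was found 5.52 kb from its end, and a 320 bp one lay in the gene Dut. For 17 of the 22 peaks another protein-coding start site was nearer than that of Fbn1, compared to 7 of the 70 peaks of the other members.

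Over all 10 genes, 41 of the 92 peaks were found in both lists (44.6%, 34.8 to 54.7), compared to 35.4% of all combined peaks. Those after 30 cycles only were 31.5% (22.9 to 41.6) against 45.5% of all combined peaks, and those after 36 cycles only 23.9% (16.4 to 33.6) against 19.1%. The interval of the 30-cycle share lies below the value of all combined peaks, but neighboring peaks are not independent, and these intervals do not take that into account. The genes differed in composition, as Lox had 5 of 7 peaks in both lists and Loxl1 2 of 10. When at least 50% of each peak had to be shared, the share in both lists was 29.3%, and 24.3% over all combined peaks.

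**Figure D4:**
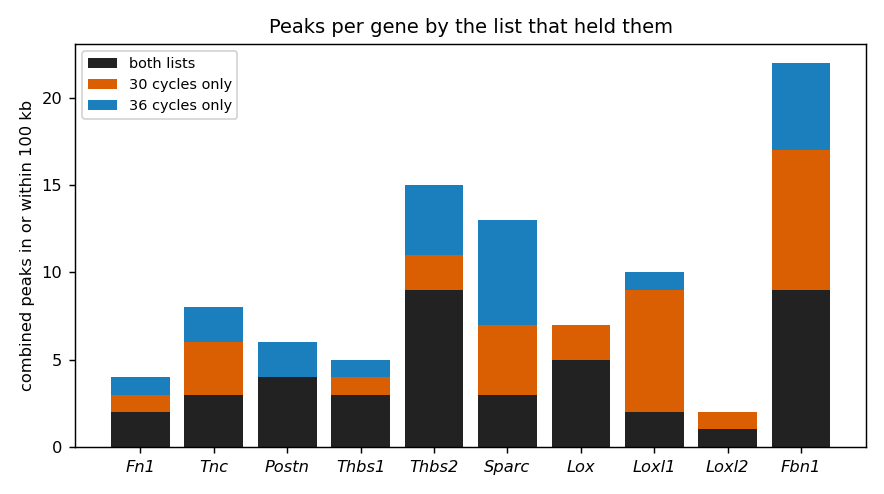
Number of combined peaks in or within 100 kb of each of the 10 genes (vertical axis), stacked by the list that held them. Thbs2 and Fbn1 have 9 peaks of both lists each, Postn has no peak after 30 cycles only, and Lox and Loxl2 have none after 36 cycles only.

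Peaks of both lists were the widest, with a median of 638 bp (n = 41), followed by 389 bp after 30 cycles only (n = 29) and 265.5 bp after 36 cycles only (n = 22). The corresponding medians of all combined peaks were 623, 324 and 255 bp. All 13 peaks over 1000 bp were found in both lists, and the same share over all combined peaks was not computed. Among all combined peaks, those after 30 cycles only reached 3243 bp and those after 36 cycles only 1526 bp. The upper quartiles of all combined peaks followed the same order. They were 876 bp in both lists, 422 bp after 30 cycles only and 329 bp after 36 cycles only. Joining overlapping peaks widens them by construction, but within the 41 peaks the 30-cycle call alone was wider in 29 and the 36-cycle call in 12, similar to all peaks of both lists, of which 69.9% were wider after 30 cycles.

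**Figure D5:**
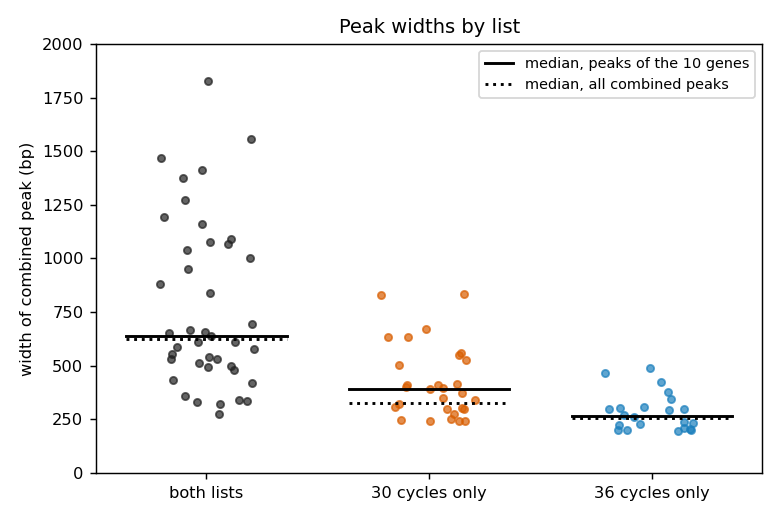
Width of the 92 combined peaks (vertical axis, bp) by the list that held them, 1 point per peak with random horizontal scatter. Solid lines are the medians of the peaks shown (638, 389 and 265.5 bp) and dotted lines those of all combined peaks (623, 324 and 255 bp).

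The peaks tended to have neighbors. A further peak at most 5 kb away was present for 59 of 92 peaks (64.1%), compared to 44.4% of all combined peaks. Groups of 4 or more were found at Sparc (12 peaks), at the Lox start site (4 peaks over 7.52 kb) and at the Loxl1 start site (4 peaks over 4.41 kb). Of the 16222 groups in the genome, 2.91% held 4 or more peaks. Inside genes, 17 peaks lay in introns and 16 touched an exon, and the same shares over all combined peaks were not computed. Repeats made up over 50% of 5 peaks (5.43%, 2.34 to 12.1), against 10.4% of all combined peaks.

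Other genes of the same pathways were counted with a list of 37 further matricellular, crosslinking and elastic fiber genes. A combined peak in or within 100 kb was present for 36 of them, all but Fbn2, against the background of 73.4%, and a peak of both lists for 24, against 47.8%. A peak inside the gene was found for 18 (background 24.6%), a peak centered within 1 kb of the start site for 8 (12.5%) and a peak over it for 5 (3.36%). At least 10 peaks were found for 6 genes (7.06%), and the 3 with the most were Ltbp3, Ccn4 and Ltbp1. Ltbp3 and Ltbp1 encode latent TGF-β binding proteins and had 48 and 16 peaks. Of the 48, 16 lay in the noncoding gene Neat1 and 9 in Malat1, the neighbors of Ltbp3. Ccn4, which encodes a secreted CCN family protein, had 21 peaks, 13 of them in both lists, and 1 over its start site. The other lysyl oxidase-like genes had 10 peaks for Loxl3 and 1 for Loxl4, and neither had a peak in the gene.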

How the data were processed

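WFS1 ChIP-seq was performed by the authors in wildtype C2C12 myoblasts. Per the study's methods, reads were mapped to GRCm38 (mm10) with NextGenMap, reads of low mapping quality were removed with samtools, and peaks were called with MACS2 at a q-value cutoff for each library separately, without pooling. The control used in calling is not given in the sources used here. The deposited values are peak positions (chromosome, start and end) without signal, score or q-value, so depth is unknown. Double crosslinking and the extra sonication of 1 part of the immunoprecipitate affect which fragments were sequenced.

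Lists were joined where peaks overlapped or directly adjoined each other (bedtools 2.31.1). Genes and start sites were from GENCODE release M21, while the annotation in the study's methods is of a later Ensembl version, and distances to genes can differ between them. Peaks were assigned to a gene within 100 kb of either end by the nearest edge. Motifs were searched on both strands, where a match is a description of sequence only. Shares have 95% Wilson intervals and densities exact Poisson intervals (scipy 1.17.1), with python 3.11.15, numpy 2.4.6, pandas 2.3.3, pysam 0.24.0 and matplotlib 3.10.9. The counting was tested on simulated data.

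Named are the 10 members with the nearest, the widest and all both-list peaks of each, the 3 pathway genes with the most peaks, and neighbors with a nearer start site. Loxl3 and Loxl4 and the peaks with both motifs were named after their values were seen, and 1 sequence is not reported here. Members, lists and motifs were chosen with earlier results of these data known. Alternatives were each list alone, joining of peaks up to 500 bp apart, wide peaks only, other distances, start sites, overlaps and parts of the peak searched.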

Additional observations from a re-analysis of the deposited data

How the results depend on the processing

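Of 68 values recomputed under another setting, 55 stayed near the reported one, that is within 1.5-fold for counts, 0.5 kb for distances and the 95% interval for shares and densities. Restricting to combined peaks wider than the median of the combined set left 54 of the 92 peaks (58.7%). With the 36-cycle list alone, 4 genes had a peak centered within 1 kb of the start site, and the nearest peak was 9.51 kb away for Thbs2, 1.30 kb for Loxl1 and 8.72 kb for Fbn1, since the nearer peaks are in the other list only. The density in the windows was 27.0 peaks per Mb with the 30-cycle list alone (nuclear chromosomes 6.71) and 25.1 with the 36-cycle list alone (4.65), as each holds fewer peaks. In windows of 50 kb it was 48.4, where the cause was not tested. The density in 50 kb windows of all protein-coding genes was not computed. Peaks of both lists were 29.3% (24.3% of all combined peaks) when at least 50% of each peak had to be shared. TGACTCA was in 25.0% of whole peaks, against 31.2% of all combined peaks, and 2.17% of central 100 bp, against 9.50%. CAGCTG was in 38.0% of whole peaks, against 32.8%, and 16.3% of central 100 bp, against 9.78%.

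No paired analysis was possible because the lists are single libraries of 1 immunoprecipitate. Peaks could not be restricted to a stricter q-value, which the deposited lists lack. The absence of a peak says only that none was called at an unknown depth. Position does not tell which gene a peak acts on.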
